A study of Mus musculus with 22 samples.

Results

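Lamin A/C regions seen by antibody 3A6 were set against those seen by antibody E1 in mouse dermal fibroblasts that lack Lap2alpha. The members were all regions of 4 ChIP-seq lists, 1 per antibody and sonication length, and lists of equal sonication length were paired. They numbered 756458 of the 2189275 regions in the 18 lists of the series, after overlapping intervals of a list had been merged. A region was assigned to both antibodies when it overlapped a region of the other antibody by at least 1 base, and otherwise to 3A6 only or to E1 only.

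The study mapped lamin A/C, the remodeller ATPases BRG1 and CHD4, and Lap2alpha by ChIP-seq, which locates a protein on the genome by sequencing the DNA that an antibody pulls down with it. Cells were dermal fibroblasts of wildtype or Lap2alpha KO genotype, grown in serum-containing medium, crosslinked with DSG and formaldehyde. Their chromatin was sonicated for 16 or 20 cycles. The labels do not say how the KO was made, whether the cells were primary or a clone, or from how many animals they came. All 4 lists described here are from KO cells, and the wildtype lists serve only as the same comparison with Lap2alpha present. Each genotype, antibody and sonication length was 1 library. There is therefore no replicate, no test and no p-value, and the match between 16 and 20 cycles within an antibody is the only spread available. Input libraries were not analysed here.

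A-type lamins, encoded by Lmna, are intermediate filament proteins of the nuclear lamina, the mesh under the inner nuclear membrane. Chromatin at the lamina is typically gene-poor and holds silent, tissue-specific gene clusters. A further pool of A-type lamins lies in the nuclear interior, where Lap2alpha, a product of Tmpo without a membrane anchor, binds it. Antibodies to different epitopes of one protein can differ in which of its pools they reach.

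The library of 3A6 at 16 cycles stood apart from the other 3. Its list held 188132 regions covering 44.0 Mb, or 1.66% of the chromosome spans, and that of 3A6 at 20 cycles held 226867 covering 60.4 Mb (2.27%). The E1 lists held 107714 regions covering 28.7 Mb (1.08%) at 16 cycles and 233745 covering 81.3 Mb (3.06%) at 20 cycles. The 3A6 list at 16 cycles was the only one of the 4 without overlapping intervals, where the others held 30063 to 155250, so the lists were not all made to the same form. The wildtype 3A6 lists held 0 at both lengths. Among 3A6 lists it was thus the KO list at 20 cycles, with 30063, that differed in form. Over 2414 autosomal bins of 1 Mb its coverage correlated with 3A6 at 20 cycles at r = 0.52 (rho = 0.53) and with E1 at 16 cycles at r = 0.17 (rho = 0.23). The 2 E1 libraries correlated at r = 0.94 (rho = 0.94), and 3A6 with E1 at 20 cycles at r = 0.90 (rho = 0.91). Bins of 1 library share its depth and mappability, so these values are descriptions. Every comparison is accordingly given at each sonication length, and the values at 20 cycles are those without that library.

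The promoters in which the antibodies differed most completely are shown first, so that the scale of a region against a promoter can be seen. They are RefSeq windows on GRCm38.p6, from 250 bases before to 50 after an annotated start, printed 5′ to 3′. Windows of 38 genes whose ends were seen by 3A6 only at both lengths held a region of both 3A6 libraries, and windows of 8 genes seen by E1 only held a region of both E1 libraries. The windows printed are the top 3 genes of each class by the number of bases inside regions at both lengths, which the capitals mark. Sema3g encodes a secreted semaphorin (chr14:31217623-31217922, plus strand) and Ybx3 a Y-box nucleic acid-binding protein (chr6:131388401-131388700, minus strand), and Sec16b encodes a protein of vesicle export from the endoplasmic reticulum (chr1:157506546-157506845, plus strand). They are from the 3A6 class. Asb17 encodes an ankyrin repeat and SOCS box protein (chr3:153843997-153844296, plus strand), Speer4d belongs to a testis gene family of close copies (chr5:15618849-15619148, plus strand) and Agbl1 encodes a cytosolic carboxypeptidase (chr7:76229637-76229936, plus strand). They are from the E1 class.
Sema3g: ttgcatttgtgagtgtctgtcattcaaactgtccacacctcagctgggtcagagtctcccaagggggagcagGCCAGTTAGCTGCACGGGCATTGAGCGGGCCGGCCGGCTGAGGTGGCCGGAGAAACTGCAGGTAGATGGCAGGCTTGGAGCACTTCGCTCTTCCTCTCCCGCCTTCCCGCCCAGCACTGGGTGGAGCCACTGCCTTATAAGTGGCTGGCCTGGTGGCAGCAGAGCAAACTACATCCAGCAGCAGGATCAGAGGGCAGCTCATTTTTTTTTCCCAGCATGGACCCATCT
Ybx3: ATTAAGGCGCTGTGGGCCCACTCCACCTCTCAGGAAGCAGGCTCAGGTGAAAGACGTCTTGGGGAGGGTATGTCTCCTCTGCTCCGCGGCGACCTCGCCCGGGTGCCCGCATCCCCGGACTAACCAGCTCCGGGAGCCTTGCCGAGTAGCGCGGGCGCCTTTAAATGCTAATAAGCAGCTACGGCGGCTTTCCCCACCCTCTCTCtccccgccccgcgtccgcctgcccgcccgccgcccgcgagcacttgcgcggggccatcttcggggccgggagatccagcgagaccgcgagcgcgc
Sec16b: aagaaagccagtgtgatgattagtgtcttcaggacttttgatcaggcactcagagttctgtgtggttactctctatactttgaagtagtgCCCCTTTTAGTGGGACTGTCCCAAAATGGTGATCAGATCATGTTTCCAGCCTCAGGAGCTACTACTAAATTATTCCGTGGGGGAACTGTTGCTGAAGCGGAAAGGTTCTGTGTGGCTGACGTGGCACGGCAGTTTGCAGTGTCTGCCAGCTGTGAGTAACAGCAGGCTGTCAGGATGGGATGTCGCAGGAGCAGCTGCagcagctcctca
Asb17: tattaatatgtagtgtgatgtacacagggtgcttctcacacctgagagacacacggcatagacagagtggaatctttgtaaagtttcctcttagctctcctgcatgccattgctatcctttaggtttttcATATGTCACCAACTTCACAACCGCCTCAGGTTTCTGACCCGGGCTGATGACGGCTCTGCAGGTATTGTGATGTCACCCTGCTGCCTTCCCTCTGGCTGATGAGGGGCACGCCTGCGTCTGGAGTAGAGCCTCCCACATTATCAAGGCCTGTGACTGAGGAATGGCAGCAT
Speer4d: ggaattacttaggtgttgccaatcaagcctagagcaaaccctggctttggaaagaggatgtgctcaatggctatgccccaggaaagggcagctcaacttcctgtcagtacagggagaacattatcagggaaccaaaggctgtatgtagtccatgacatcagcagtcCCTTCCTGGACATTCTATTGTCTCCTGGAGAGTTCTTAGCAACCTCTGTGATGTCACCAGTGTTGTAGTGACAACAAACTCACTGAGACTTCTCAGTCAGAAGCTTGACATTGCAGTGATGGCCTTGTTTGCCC
Agbl1: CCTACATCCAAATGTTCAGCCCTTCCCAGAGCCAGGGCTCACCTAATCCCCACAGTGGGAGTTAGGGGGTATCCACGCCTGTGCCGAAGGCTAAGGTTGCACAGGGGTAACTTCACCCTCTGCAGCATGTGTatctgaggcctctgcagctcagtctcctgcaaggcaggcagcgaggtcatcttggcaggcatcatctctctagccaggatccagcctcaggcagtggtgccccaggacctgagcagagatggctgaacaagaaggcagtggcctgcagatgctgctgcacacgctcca

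In the Sema3g window 228 of 300 bases lay in 3A6 regions at both lengths and 0 in E1 regions, and in the Ybx3 window 205 and 0 and in the Sec16b window 198 and 0. In the Asb17 window 170 bases lay in E1 regions at both lengths and 0 in 3A6 regions, in the Speer4d window 134 and 0, and in the Agbl1 window 132 and 0. The Ybx3 window was 69.0% GC with 34 CpG dinucleotides the Sema3g window 58.7% GC with 8 and the Sec16b window 50% GC with 5. Asb17, Speer4d and Agbl1 had 50.3%, 48% and 58.7% GC with 6, 0 and 4 CpG. The median region widths of the 4 libraries, 224 to 332 bp, are close to the 300 bases of a window. A single gene, Iqcm, met the same condition for both antibodies (chr8:75448444-75448743, plus strand). In its window 198 and 154 bases lay in 3A6 regions at 16 and 20 cycles and 52 and 185 in E1 regions, and the capitals mark the 39 bases shared by at least 3 of the 4 libraries.
Iqcm: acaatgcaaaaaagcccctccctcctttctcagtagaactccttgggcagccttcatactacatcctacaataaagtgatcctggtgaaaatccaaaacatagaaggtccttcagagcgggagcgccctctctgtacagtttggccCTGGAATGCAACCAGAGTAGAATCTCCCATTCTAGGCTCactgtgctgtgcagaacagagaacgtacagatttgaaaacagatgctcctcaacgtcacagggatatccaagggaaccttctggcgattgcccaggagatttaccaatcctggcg

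3A6 and E1 placed few regions on the same bases without Lap2alpha. At 16 cycles 6685 of 188132 3A6 regions, 3.55% (95% Wilson interval 3.47 to 3.64), overlapped an E1 region, and 6680 of 107714 E1 regions, 6.2% (6.06 to 6.35), overlapped a 3A6 region. At 20 cycles the shares were 15.3% (15.1 to 15.4) of 3A6 regions and 14.8% (14.7 to 15) of E1 regions. The target lists held 1.08% and 1.66% of the spans at 16 cycles and 3.06% and 2.27% at 20 cycles. A region meets a target more easily than a single base does. By bases, 2.04% of the 3A6 length and 3.13% of the E1 length lay in regions of the other antibody at 16 cycles. At 20 cycles the values were 9.71% and 7.21%, so each stood above the share of the genome that the target list covered. All such intervals cover counting error only, and since neighbouring regions are not independent they are narrower than the real error.

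A wider reach gave larger shares. Within 10 kb, overlaps included, 47.0% of 3A6 regions had an E1 region at 16 cycles and 79.4% at 20 cycles, and the bases within 10 kb of an E1 region made up 38.7% and 45.1% of the spans. Of E1 regions 80.6% and 96.0% had a 3A6 region within 10 kb, where such bases made up 68.1% and 63.2% of the spans. Most of the genome thus lies within 10 kb of a 3A6 region, and these shares set no rank between the antibodies.

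Regions of 16 cycles were found again at 20 cycles more often for E1 than for 3A6, with lists of unequal length. Of the E1 regions at 16 cycles 45.7% (45.4 to 46.0) overlapped an E1 region at 20 cycles, and 21% (20.9 to 21.2) the other way. Of the 3A6 regions at 16 cycles 19.1% (18.9 to 19.3) overlapped a 3A6 region at 20 cycles, and 15.8% (15.7 to 16.0) the other way. The target lists at 20 cycles covered 3.06% of the spans for E1 and 2.27% for 3A6. With equal numbers of the widest regions in each list the shares of 16 cycles were 26.4% for E1 and 16.4% for 3A6, so the E1 value fell by more than 1.5 times. Of the 3A6 regions at 20 cycles 15.3% overlapped an E1 region of 20 cycles and 15.8% a 3A6 region of 16 cycles. The E1 target list covered 3.06% of the spans and the 3A6 target list 1.66%, so these shares are not on equal targets.

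In wildtype the antibodies overlapped more in each of the 4 directions. At 16 cycles 7.29% of 3A6 and 14.4% of E1 regions were shared, and at 20 cycles 22.0% and 28.3%, from lists that covered less of the genome in 3 of 4 cases. The wildtype 3A6 libraries also matched across sonication lengths, at 48.7% of the regions of 16 cycles, close to the 51.7% of E1. The difference between genotypes was not tested.

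**Figure D1:**
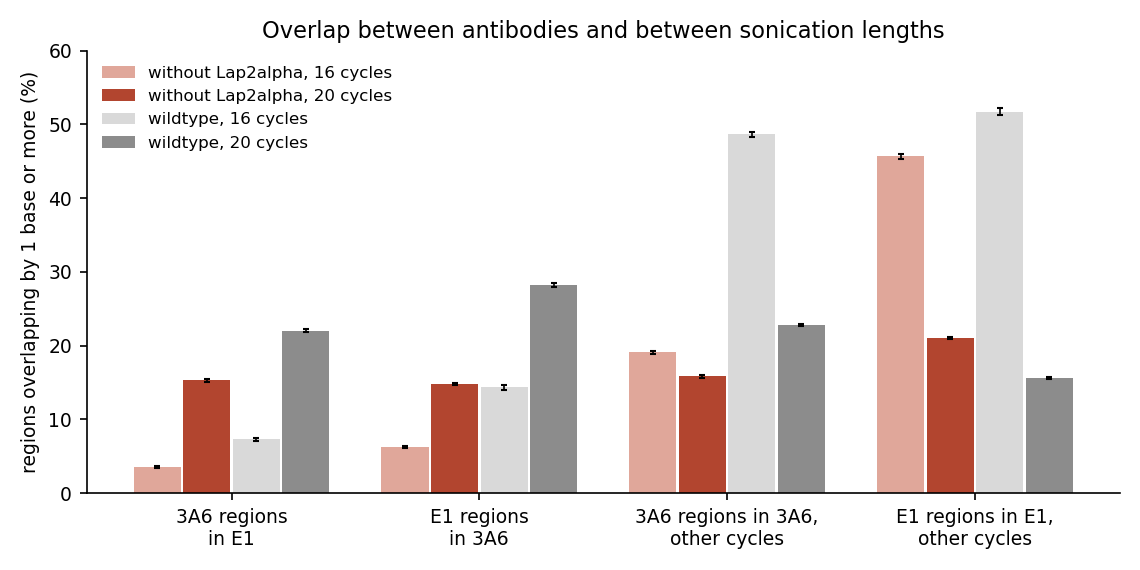
Share of regions (vertical axis, percent) that overlap a region of the other antibody, in the groups of bars for 3A6 in E1 and E1 in 3A6, or of the same antibody at the other sonication length. Bars are single libraries, error bars are 95% Wilson intervals for counting error; without Lap2alpha the between-antibody bars stand at 3.55% to 15.3% and the E1 bar for 16 cycles within the antibody at 45.7%.

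When the 4 lists were merged into 617997 loci, most loci belonged to a single library. The loci found once numbered 140368 and 157057 for 3A6 at 16 and 20 cycles and 50599 and 152293 for E1. A further 29001 loci (4.69%) were in both 3A6 lists and no E1 list, 36895 (5.97%) in both E1 lists and no 3A6 list, and 2009 (0.33%) in all 4. Loci seen by all 4 had a median width of 628 bp, against 326 bp for the 3A6 pair and 402 bp for the E1 pair. Some widths recurred: 198 bp was the most frequent width in 3 of the 4 lists (13.2% to 19.9% of regions), and in E1 at 20 cycles the most frequent was 628 bp (8.86%). Ranking by width is thus coarse.

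Regions of 3A6 lay more in gene-rich chromosome segments than those of E1, at both sonication lengths, and by far more at 16 cycles. Gene-rich segments were the 684 bins of 1 Mb that held at least 11 protein-coding genes (25.6% of the spans), and gene-poor segments the 867 bins that held at most 2 (32.4%). At 16 cycles 23.8% of 3A6 and 14.2% of E1 regions were in gene-rich bins, a difference of 9.60 percentage points (Newcombe interval for counting error 9.31 to 9.88). At 20 cycles, without the library that stood apart, the shares were 17.2% and 15.2%, a difference of 1.96 points (1.75 to 2.17). Gene-poor bins held 35.2% and 47.7% at 16 cycles, a difference of -12.5 points, and 43.3% and 46.6% at 20 cycles, a difference of -3.35 points. Both antibodies stayed below the gene-rich share of the genome and above its gene-poor share.

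Regions seen by both antibodies count on both sides, so the split by class describes the difference and does not explain it. The gene-rich share of 3A6-only regions was 24.1% (23.9 to 24.3) at 16 cycles and 17.3% (17.2 to 17.5) at 20 cycles. Those of E1-only regions were 14.1% (13.8 to 14.3) and 15% (14.9 to 15.2). Regions seen by both stood between them, at 16.9% (16.0 to 17.8) of 6669 merged regions and 16.3% (15.9 to 16.7) of 34352. E1-only regions thus varied by about 1 point between sonication lengths, while 3A6-only regions varied by several points. Of the loci found at both lengths, 18.9% of those seen by 3A6 without E1 were in gene-rich bins, 14.6% of those seen by E1 without 3A6, and 19.3% (17.6 to 21) of those in all 4 libraries.

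Across steps of gene density the 3A6-only regions at 16 cycles followed the genome most closely. Bins without a protein-coding gene make up 10.9% of the spans and held 12.6% of 3A6-only, 18.2% of E1-only and 16.8% of shared regions at 16 cycles. At 20 cycles they held 16.2%, 17.7% and 15.6%. Bins with at least 21 genes make up 9.35% of the spans and held 8.42% of 3A6-only and 4.80% of E1-only regions at 16 cycles, then 5.81% and 5.08% at 20 cycles.

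**Figure D2:**
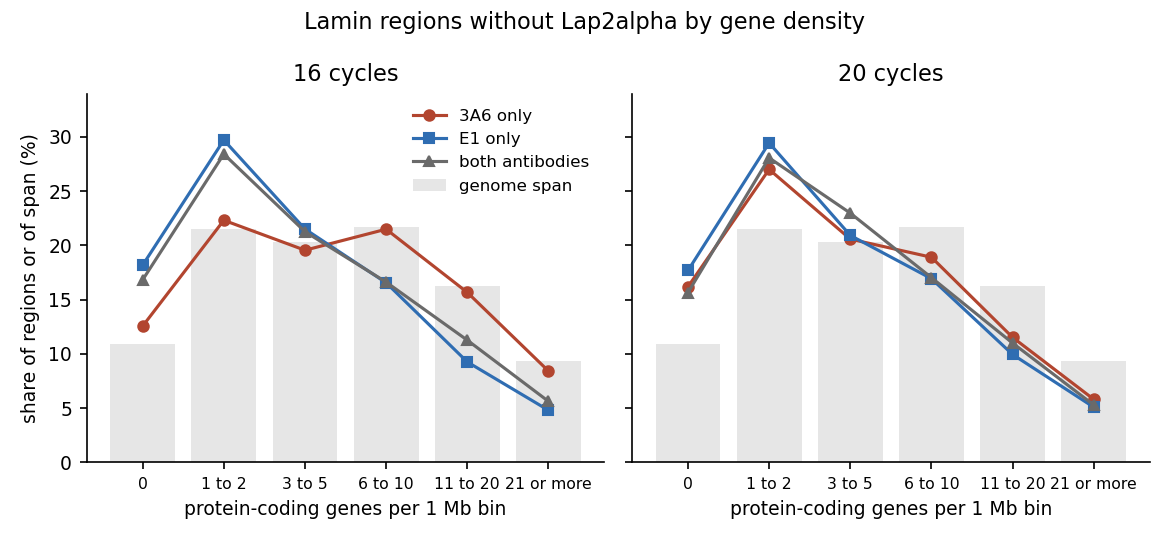
Share of 3A6-only, E1-only and shared regions (points, percent) in 1 Mb bins grouped by their number of protein-coding genes, beside the share of the chromosome spans (grey bars), 1 library per antibody and panel. At 16 cycles the 3A6-only line stays near the bars, from 12.6% in bins without genes to 8.42% in bins with at least 21, while at 20 cycles the 3 lines lie close together.

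The same order held inside genes. Gene bodies cover 38.8% of the spans. They held 40.4% of 3A6-only and 30.4% of E1-only regions at 16 cycles, and 33.6% and 30.2% at 20 cycles. Of shared regions 30.1% and 30.6% were in gene bodies. Gene ends, taken as 1 kb to each side of both ends, cover 2.98% of the spans and held 2.65% and 1.42% at 16 cycles, then 1.87% and 1.54%. All classes were below the genome share at gene ends.

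With Lap2alpha present the antibodies differed less by gene density. In wildtype the gene-rich difference of 3A6 minus E1 was 0.64 points (0.28 to 1.00) at 16 cycles and 0.11 points (-0.11 to 0.34) at 20 cycles, and the gene-poor difference -3.28 and -0.44 points. The KO values of 9.60 and 1.96 points were larger at both lengths, which was not tested.

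The antibodies also differed in how coverage was spread over chromosomes. The ratio of 3A6 to E1 coverage was lowest on chromosome 8 (0.33 at 16 and 0.48 at 20 cycles) and highest on chromosome 12 (5.91 and 1.43). Over 20 chromosomes the order was much the same at both lengths (rho = 0.92, a description over chromosomes that share 4 libraries). Chromosome 8 was 0.79% and 3.13% covered by 3A6 and 2.37% and 6.57% by E1. Chromosome 12 was 2.32% and 1.97% covered by 3A6 and 0.39% and 1.38% by E1. In wildtype chromosome 12 was likewise the highest, at ratios of 6.17 and 1.94, and 3A6 exceeded E1 on all 20 chromosomes.

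Of 2672 bins of 1 Mb, 1294 were more covered by 3A6 at both lengths, 662 more by E1 and 716 by neither. The bins of 3A6 held a median of 7 genes and those of E1 a median of 3. The 5 bins with the largest 3A6 excess all lay on distal chromosome 6. Its last part, from 142000001 to 149586499, was 7.97% and 6.65% covered by 3A6 at 16 and 20 cycles and 1.11% and 2.89% by E1. The rest of the chromosome was 1.94% and 2.60% covered by 3A6 and 1.15% and 3.37% by E1. In this segment lie Sox5, a transcription factor gene of cartilage and neurons, the amino acid transaminase gene Bcat1, and the motor adaptor gene Bicd1. Wildtype 3A6 covered it at 0.64% and 1.57%. The KO BRG1 lists covered it at 4.33% and 4.81%, above the 2.65% and 2.99% of the rest of the chromosome. Wildtype BRG1 likewise covered it at 2.20% and 4.37%, above 1.46% and 3.20% of the rest. The limits of this segment were chosen after seeing the values.

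The bins with the largest E1 excess lay on chromosomes 15, 8 and 3. The bin of Cntn1 and Pdzrn4 on chromosome 15 (92000001 to 93000000) was 9.44% and 24.9% covered by E1 at 16 and 20 cycles and 2.79% and 11.5% by 3A6. Here 3A6 too covered more than the 2.27% it covered of all spans at 20 cycles. On chromosome 8 the bin of Adamts18, a matrix metalloprotease-like gene, was 6.67% and 20.1% covered by E1 and 1.04% and 7.75% by 3A6. The next bin towards the centromere, with the neurexin family gene Cntnap4, was at 6.87% and 21.1% and at 1.52% and 8.92%. The bin of the prostaglandin receptor gene Ptger3 on chromosome 3 was at 7.27% and 16.6% and at 1.76% and 7.21%.

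In steps of 100 kb, bins covered by one antibody and nearly free of the other were counted. A bin covered at 5% or more by one antibody at both lengths and at 0.5% or less by the other was found 11 times for 3A6, of 26600 bins, and 0 times for E1. The cut-offs were the same for lists that covered 1.08% to 3.06% of the spans, so these counts set no rank between the antibodies. Of the 11, 7 were on chromosome 6 and 2 were neighbours on chromosome 15, and this rule was set after seeing the data. They held, among others, Eif2ak3 (the endoplasmic reticulum stress kinase PERK), Itpr2 (a calcium release channel), Aebp2 (a Polycomb cofactor), Sspn (sarcospan) and Sec23a (a coat protein of vesicles leaving the endoplasmic reticulum).

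**Figure D3:**
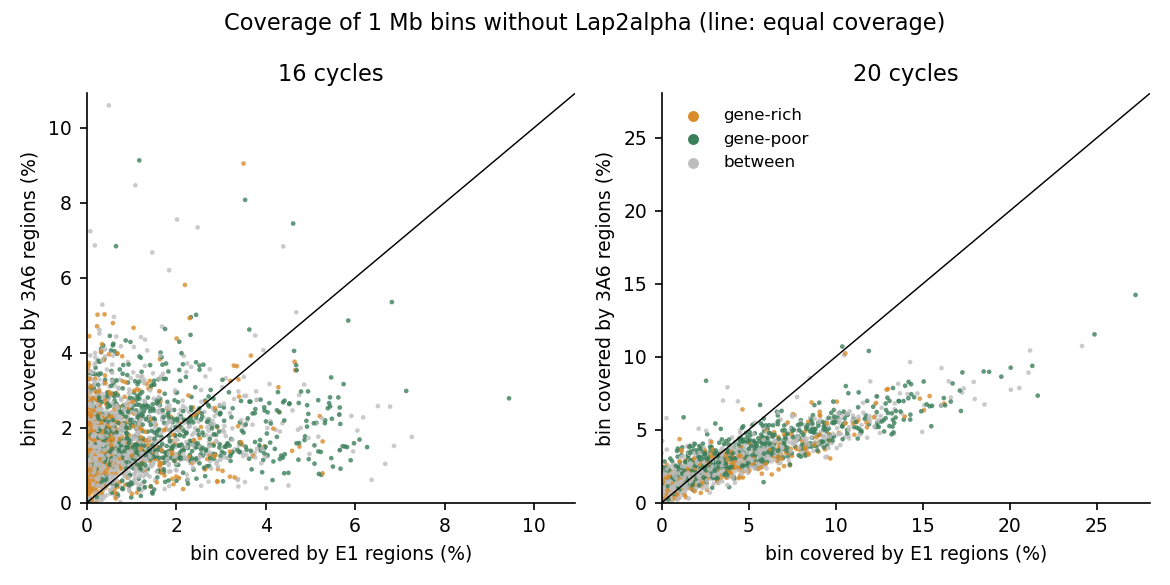
Percent of each 1 Mb bin covered by E1 regions (horizontal axis) and 3A6 regions (vertical axis) at 16 cycles (left) and 20 cycles (right), coloured by gene density, with the line of equal coverage. At 16 cycles the points spread along both axes (r = 0.17 over autosomal bins), and at 20 cycles they form 1 band (r = 0.90) that falls below the line where E1 coverage is high.

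At gene ends 3A6 marked more genes than E1. Of 21883 protein-coding genes 4839 (22.1%) had a 3A6 region at an end at 16 cycles and 3927 (17.9%) at 20 cycles, against 1535 (7.01%) and 2925 (13.4%) with E1. Split by class at 16 cycles, 550 genes (2.51%) were seen by both, 4289 (19.6%) by 3A6 only and 985 (4.5%) by E1 only. At 20 cycles 1631 (7.45%) were seen by both, 2296 (10.5%) by 3A6 only and 1294 (5.91%) by E1 only. The classes were kept in part: 745 genes (3.4%) were 3A6 only at both lengths, which is 17.4% of those at 16 and 32.4% of those at 20 cycles. For E1 only the number was 222 (1.01%), or 22.5% and 17.2%, and for both antibodies 250 (1.14%), or 45.5% and 15.3%. A change of side was also seen, as 236 genes were 3A6 only at 16 and E1 only at 20 cycles, and 121 the reverse.

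The genes of the classes differed in length more than in neighbourhood. Genes seen by 3A6 only at both lengths had a median length of 25.9 kb, those seen by E1 only 12.9 kb and those seen by both 6.61 kb, against 17.2 kb for all genes. Their bins held a median of 13, 13 and 16 genes, and bins of genes without a gene-end region in any library held 17. Each end window had the same width whatever the gene length. In very short genes the windows of both ends overlap and together span less sequence. Olfactory receptor genes, with a median length of 0.95 kb, were 30.0% of the genes seen by both, 24.8% of E1 only and 5.10% of 3A6 only. The part of this family in the medians was not tested.

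Among genes whose ends were seen in all 4 libraries, immune, liver and neural genes were named by the rule. Ms4a1, which encodes the B cell antigen CD20, had a widest gene-end region of 330 and 578 bp with 3A6 at 16 and 20 cycles and 340 and 628 bp with E1. For Ccr1, a chemokine receptor gene, the widths were 328 and 482 bp with 3A6 and 442 and 628 bp with E1. The others were Klrk1 (the natural killer receptor NKG2D), Chil4 (a chitinase-like protein), Cyp3a25 (a cytochrome P450), Cntn1 (the neural adhesion protein contactin 1), Dok5 (a receptor kinase adaptor) and Zfp735. Of these 8 genes 7 had a gene-end region in at least 1 wildtype lamin library, and Klrk1 in none.

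Gene ends seen by 3A6 only were of mixed kinds. Bmp2, the bone morphogenetic protein gene, had the widest, 760 and 720 bp at 16 and 20 cycles and none with E1, and its body was 12.2% and 14.1% covered by 3A6 and 0 and 6.24% by E1. Hao1, a liver peroxisomal oxidase gene, had 564 and 378 bp, and Cmpk2, a mitochondrial nucleotide kinase gene induced by interferon, 550 and 392 bp. Ghrhr, the receptor for growth hormone-releasing hormone, had 394 and 432 bp. Lrrc74b, Hs1bp3, Ifna6 (an interferon alpha) and Mettl7a3 completed the 8. Of them Bmp2 alone had a gene-end region in a wildtype lamin library. Ifna6 and Mettl7a3 have near-identical neighbours between which reads could be divided.

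Of the 222 genes whose ends were seen by E1 only at both lengths, 144 (64.9%, Wilson interval 58.4 to 70.8) had a gene-end region in at least 1 wildtype lamin library, and 125 (56.3%) in a wildtype 3A6 library. The shares were 13.8% (11.5 to 16.5) and 12.6% of the 745 genes seen by 3A6 only and 79.6% (74.2 to 84.1) and 74.0% of the 250 seen by both, against 12.4% and 10.5% of all genes. The 8 genes named by width follow. Mmp10, the matrix metalloprotease stromelysin 2, had E1 regions of 482 and 628 bp at its ends and no 3A6 region, and Fbxl7, an F-box gene, 380 and 628 bp. Piwil1, the Piwi protein gene of the male germ line, had 406 and 628 bp, and its body was 2.64% and 25.2% covered by E1 and 2.04% and 2.95% by 3A6. Atp7b, the copper ATPase gene of the liver, had 394 and 392 bp. Fam184a, the T-box gene Tbx22, Adam26a and Scgb3a2 (a secretoglobin) were the rest. All 8 had a gene-end region in at least 1 wildtype lamin library, and 7 of them in a wildtype 3A6 library, all except Tbx22. The wildtype 3A6 regions at these 7 genes were at 1 or both sonication lengths. The absence of 3A6 from their ends in KO cells is the rule that made the class, and is not a separate result.

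Gene bodies showed the largest local contrast on chromosome 15. Of 16849 genes of at least 5 kb, 5408 (32.1%) were more covered by 3A6 at both lengths and 1075 (6.38%) more by E1. With a difference of at least 1 percentage point at both, the counts were 2264 (13.4%) and 674 (4%). The 3A6 list at 16 cycles enters both counts, and at 20 cycles E1 covered more of the genome. Of the 8 genes with the largest 3A6 excess, 7 lay in 1 stretch of chromosome 15. Slc11a2, the iron transporter DMT1 (100387898 to 100424209), was 17.6% and 17.7% covered by 3A6 at 16 and 20 cycles and 0 by E1 at both. Atf1, a CREB-family transcription factor gene, was at 19.3% and 12.9% and at 0 with E1. Tmprss12, a serine protease gene, was at 22.8% and 19.7%, again at 0 with E1. Mettl7a1, Mettl7a3, Methig1 and Higd1c lie between them, and since Mettl7a1, Mettl7a3 and Methig1 are close copies their separate values are uncertain.

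The whole stretch, from 100200001 to 100430000, held 123 and 101 regions of 3A6 and 1 and 0 of E1. It was 18.1% and 15.4% covered by 3A6. In the 4 wildtype lamin libraries it held 7 regions in 1 library, 3A6 at 16 cycles, and 0 in the rest. BRG1 covered it at 6.31% and 7.5% in KO cells and at 2.38% and 7.11% in wildtype. The other gene of the 8 was Alad on chromosome 4, which encodes an enzyme of haem synthesis. It was 16.9% and 13.3% covered by 3A6 and 0 by E1.

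Of the 1075 genes more covered by E1, 834 (77.6%) held 3A6 regions at both lengths and 56 (5.21%) at neither. Of the 5408 genes more covered by 3A6, 862 (15.9%) held E1 regions at both lengths and 3287 (60.8%) at neither. Over all genes of at least 5 kb, 43.9% held 3A6 regions at both lengths and 17.2% E1 regions. Of the 8 genes with the largest E1 excess, Chil3, a chitinase-like gene of macrophages on chromosome 3, was 19.2% and 30.4% covered by E1 and 4.43% and 13.2% by 3A6. Hsd3b2, a steroid dehydrogenase gene, was at 11.5% and 22.9% with E1 and 1.64% and 10.9% with 3A6. Ctsq, a placental cathepsin gene, was at 14.7% and 21% with E1 and at 3.56% and 0 with 3A6. Pvrig, a lymphocyte receptor gene, was at 14.7% and 21.9% with E1 and 3.52% and 6.54% with 3A6. Oog3, an oocyte gene, was at 10.5% and 12.3% with E1 and at 0 in both 3A6 libraries. Zfp981, Ccr1l1 and Ccdc7a were the rest of the 8. Of the 8, only Oog3 was free of 3A6 at both lengths.

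Some bodies were covered by every library. The 8 with the highest minimum were Mup5 (a major urinary protein), the liver and brain transporters Slco1b2 and Slco1a4, Ms4a4a, the chemokine receptor Ccr2, the lectin Clec2m, Oosp2 and Rergl. Slco1b2 was 11.9% and 15.1% covered by 3A6 and 9.34% and 15.6% by E1. Mup5, of a family of close copies, was at 9.38% and 18.5% and at 9.41% and 26.7%. Regions were present in all 4 libraries in 2560 gene bodies, with a median length of 93.6 kb, and in none in 4392, with a median of 11.8 kb.

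Of the 7 genes that encode lamins, their partners and the remodellers, 6 held no E1 region in the gene body at either length, beside 68.7% of all genes of at least 5 kb. Lmna and Lmnb2 held no region of either antibody in any of the 4 libraries. Lbr, the lamin B receptor gene, was 1.17% and 1.25% covered by 3A6 at 16 and 20 cycles and 0 by E1. Chd4 was at 4.02% and 0.77% with 3A6 and 0 with E1. Smarca4, the BRG1 gene, was at 1.43% and 0.05% with 3A6 and at 0.22% and 0 with E1. Tmpo and Lmnb1 held 3A6 regions at 16 cycles alone, at 1.66% and 2.17%.

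The cell cycle, nuclear envelope, SWI/SNF and NuRD lists had 3A6 regions at 16 cycles at about the share of all genes or below it. They had no E1 region at a gene end. The counts below are gene-end regions over a list, beside 22.1% and 17.9% of all genes for 3A6 and 7.01% and 13.4% for E1 at 16 and 20 cycles. Of 33 cell cycle and replication genes 7 and 2 had a 3A6 region and 0 and 0 an E1 region. Among them were Mcm6 and Mcm4 (replicative helicase subunits) at 16 cycles and Bub1 (a spindle checkpoint kinase) at 20 cycles. Of 24 nuclear envelope and lamina genes 4 and 3 had a 3A6 region (such as Lemd3 at 16 and Syne2 at 20 cycles), of 18 SWI/SNF subunits 3 and 1, and of 14 NuRD subunits 3 and 1. E1 had 0 in each of these lists at both lengths, but the lists are small and a count of 0 in them is weak evidence. No gene of these 4 lists was 3A6 only at both lengths, so different members carried the regions at 16 and 20 cycles. The 3A6 shares of these lists were 16.7% to 21.4% at 16 cycles, beside 22.1% of all genes, and 5.56% to 12.5% at 20 cycles, beside 17.9%. The housekeeping, immediate early and histone lists did hold E1 regions at 16 cycles. The E1 shares of the housekeeping and histone lists were then 12% and 12.9%, above the 7.01% of all genes. Of 25 housekeeping genes 2 and 1 had a 3A6 region and 3 and 0 an E1 region, of 18 immediate early genes 1 and 1 and then 1 and 0, and of 62 replication-dependent histone genes 5 and 4 and then 8 and 0.

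Ribosomal protein genes had fewer 3A6 regions at 20 than at 16 cycles. Of 85, 23 (27.1%) had a gene-end 3A6 region at 16 cycles and 4 (4.71%) at 20 cycles, and with E1 0 and 2. All genes stood at 22.1% and 17.9% with 3A6 and at 7.01% and 13.4% with E1. Zinc finger genes of the Zfp type, many of them repressors in clusters, stood at 27.4% and 16.0% of 394 with 3A6 and at 6.35% and 10.7% with E1. Both differences were larger at 16 cycles, where they rest on the 3A6 library that stood apart.

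The lists of fibroblast genes and of genes of other cell types were small, and their shares lay on both sides of those of all genes. Over all genes the shares were 22.1% and 17.9% with 3A6 and 7.01% and 13.4% with E1, and the counts below are too low to rank against them. Of 35 fibroblast and matrix genes 7 and 4 had a 3A6 region at an end (20.0% and 11.4%) and 3 and 2 an E1 region (8.57% and 5.71%). Col12a1 and Col6a2, both collagen genes, were 3A6 only at both lengths. Of 16 contractile and YAP target genes 4 and 0 had a 3A6 region and 1 and 0 an E1 region. Of 16 leukocyte genes 5 and 7 had a 3A6 region (31.25% and 43.75%) and 1 and 4 an E1 region (6.25% and 25%). Ptprc (CD45) and Cd4 were 3A6 only at both lengths. Of 11 endothelial genes 2 and 4 had a 3A6 region (18.2% and 36.4%) and 1 and 1 an E1 region (9.09% at each length). Vwf (von Willebrand factor) and the transcription factor gene Erg were 3A6 only at both lengths. Regions do not measure expression, so these lists say nothing of the identity of the cells.

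Clustered families of tissue-specific genes split in both directions. The shares below stand beside 22.1% and 17.9% of all genes with 3A6 and 7.01% and 13.4% with E1. Protocadherin genes, adhesion receptors of neurons in 1 cluster on chromosome 18, were at 38.6% and 43.9% of 57 with 3A6 and at 10.5% and 28.1% with E1. Of 37 of them of at least 5 kb, 23 were more covered by 3A6 at both lengths and 0 by E1, against 32.1% and 6.38% of all genes of that length. The members overlap each other on the genome and are not independent. UDP-glucuronosyltransferases, enzymes of drug metabolism, were at 47.6% and 47.6% of 21 with 3A6 and at 9.52% and 38.1% with E1. Natural killer complex lectins were high with both antibodies, at 51.4% and 51.4% of 37 with 3A6 and 32.4% and 45.9% with E1. In this list Klrb1, Klrb1b, Klrk1 and Clec2h were seen in all 4 libraries, Klra17 by 3A6 only and Klra1 by E1 only. Prolactin family genes, 25 placental hormone genes in 1 cluster, had 4 and 2 members with a 3A6 region (16% and 8%) and 0 with E1 at either length. Both antibodies were thus below their shares of all genes, in a list too small to rank.

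E1 was the more frequent antibody at sensory receptors, defensins and long neuronal genes, in part. Among all genes 22.1% and 17.9% had a 3A6 region at an end and 7.01% and 13.4% an E1 region. Of 353 vomeronasal receptor genes, which detect pheromones, 16.7% and 27.2% had a 3A6 region at an end and 19% and 31.7% an E1 region. Of 1106 olfactory receptor genes 32.2% and 50.9% had a 3A6 region and 29.8% and 60.9% an E1 region, so the order turned between sonication lengths. Olfactory genes are 5.05% of all genes. They made up 75 (30.0%) of the 250 genes seen in all 4 libraries and 55 (24.8%) of the 222 seen by E1 only, and 38 (5.10%) of the 745 seen by 3A6 only, close to their share of all genes. Of 70 defensin genes, which encode antimicrobial peptides and include close copies, 8.57% and 44.3% had a 3A6 region and 27.1% and 45.7% an E1 region.

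Long neuronal genes, 28 synaptic and adhesion genes with a median length of over 1 Mb, were more covered by E1 at both lengths in 14 cases and by 3A6 in 6. These counts stand beside 6.38% and 32.1% of all genes of at least 5 kb. Csmd1 on chromosome 8 was 4.52% and 14.2% covered by E1 at 16 and 20 cycles and 0.83% and 6.24% by 3A6. Erbb4, a receptor tyrosine kinase gene, had more 3A6, 2.65% and 2.37% against 0.60% and 1.12%, as did Opcml and Cadm2. Nlgn1 and Tenm2, both synaptic adhesion genes, had gene-end regions of E1 only at both lengths (7.14% of the list). Voltage-gated channel genes had 3 members of each kind among 37 (8.11%). Scn2a, Kcnc2 and Cacna1d were seen by 3A6 only and Scn1a, Kcna5 and Scn8a by E1 only. Of all genes 3.4% were 3A6 only and 1.01% E1 only at both lengths, and the counts in these lists are too low to rank.

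**Figure D4:**
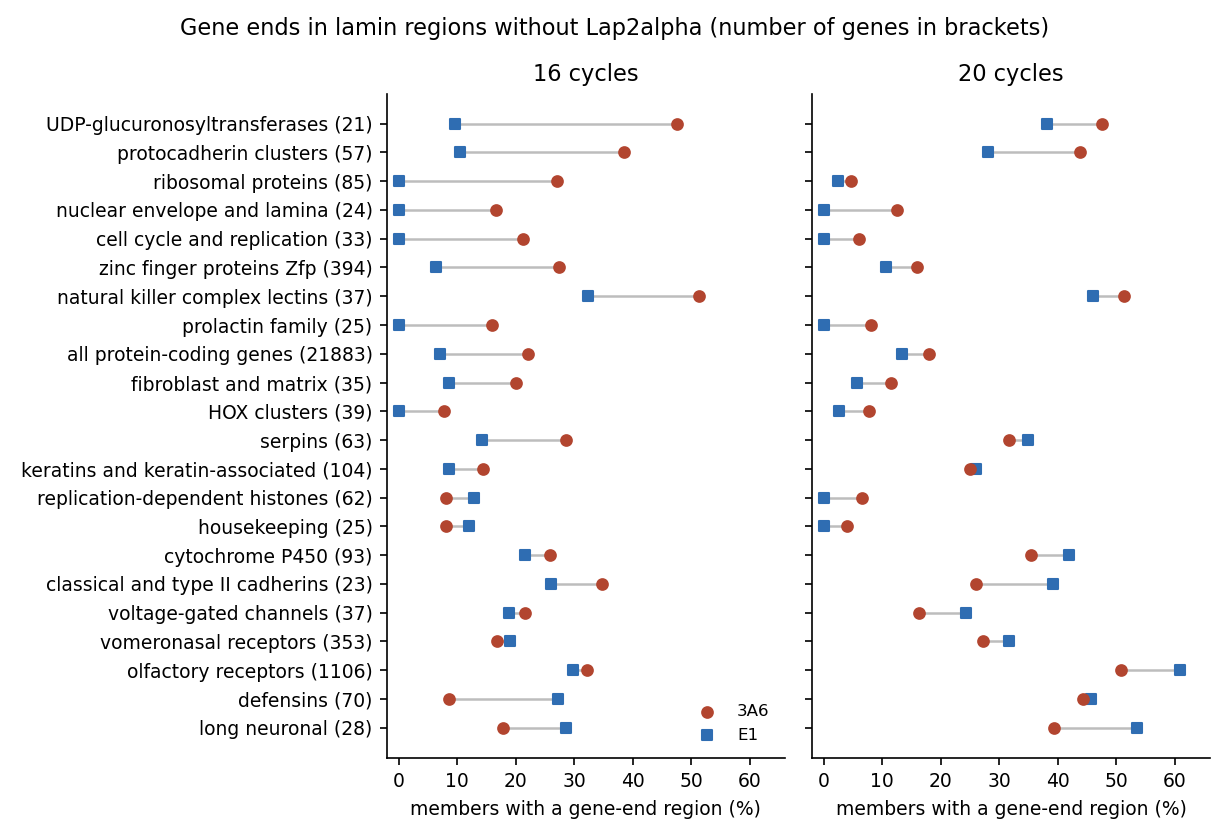
Percent of the members of each gene list with a region within 1 kb of a gene end, for 3A6 (circles) and E1 (squares), at 16 cycles (left) and 20 cycles (right), with the number of genes in brackets, for lists of at least 20 genes. Lists are ordered by the mean difference; 3A6 lies to the right in most lists at 16 cycles, while at 20 cycles E1 is to the right for olfactory receptors (60.9% against 50.9%) and long neuronal genes.

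Promoters seen by the antibodies differed in base composition. Among 21262 RefSeq promoter windows of 17491 genes the mean GC content was 56.2% ± 11.6 (SD over windows). The 763 windows with a region of 3A6 only at 16 cycles had 54.6% ± 10.3, and the 538 at 20 cycles 51.5% ± 11.7. The 215 and 517 windows with a region of E1 only had 44.5% ± 9.16 and 46.1% ± 11. CpG-rich windows, those with at least 24 CpG, made up 26.9% of all. They made up 21.1% (18.4 to 24.1) and 15.6% (12.8 to 18.9) of 3A6-only windows but 1.86% (0.73 to 4.69) and 5.03% (3.45 to 7.27) of E1-only windows. The printed Ybx3 window is a CpG-rich window of the 3A6 class.

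The motif TATAAA, searched on both strands, was in 12.6% of all windows. It was in 13.4% and 18.4% of 3A6-only windows and in 31.2% and 28.0% of E1-only windows. The motif is made of A and T alone, so its share moves with GC content, and a match is not a site of any factor. The motifs GAGAG and CACACA, also searched, differed less. GAGAG was in 62.0% of all windows, 59.5% and 59.9% of 3A6-only and 57.7% and 60.5% of E1-only windows. CACACA was in 18.7% of all windows, 17.7% and 20.3% of 3A6-only and 17.2% and 25.3% of E1-only windows. Promoters with a region were few in each class, and 20114 of 21262 windows had none at 20 cycles.

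Seen from the promoters, E1 was rarer than 3A6 where CpG was high, and both were rarer there than over all windows. Of all windows 3.65% and 2.97% had a 3A6 region at 16 and 20 cycles and 1.07% and 2.87% an E1 region. Of 5728 CpG-rich windows 2.86% (2.46 to 3.33) and 1.5% (1.22 to 1.85) had a 3A6 region and 0.12% (0.06 to 0.25) and 0.49% (0.34 to 0.71) an E1 region. Of 6035 windows with at most 4 CpG 3.6% and 4.92% had a 3A6 region and 2.45% and 6.56% an E1 region. The 3A6 share was therefore above that of E1 at CpG-rich promoters at both lengths, and at CpG-poor promoters above it at 16 and below it at 20 cycles.

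**Figure D5:**
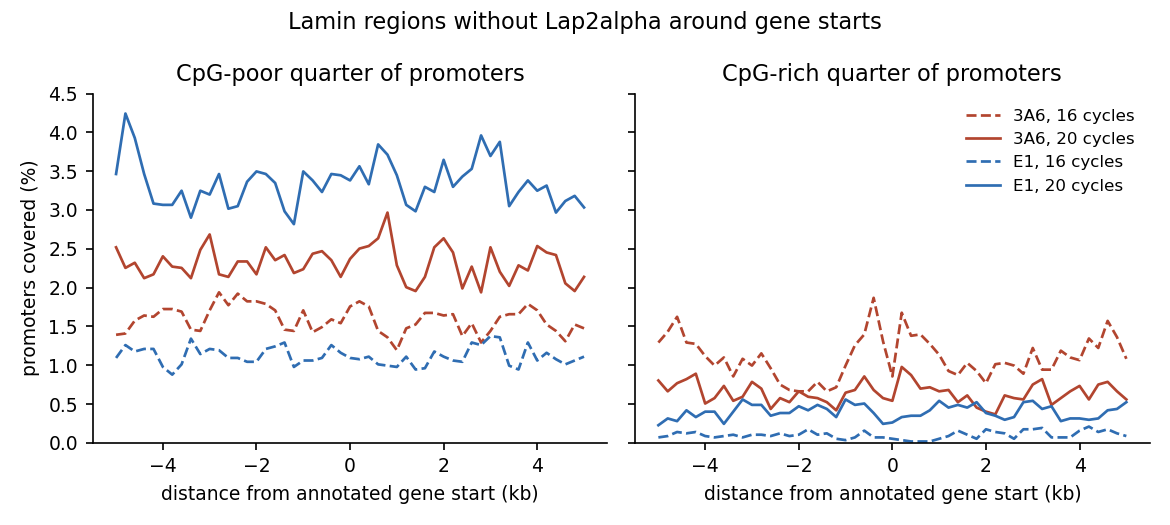
Percent of promoters covered by a region (vertical axis) against distance from the annotated start in kb, for promoters with at most 4 CpG (left) and at least 24 CpG (right), by antibody and sonication length, 1 library per line. Over CpG-rich promoters E1 stays below 3A6 around the start, and over CpG-poor promoters no line has a peak at the start.

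Regions seen by 3A6 only overlapped BRG1 regions of the same cells more often than regions seen by E1 only. BRG1 is the ATPase of SWI/SNF remodellers, and its KO lists covered 2.75% and 3.19% of the spans at 16 and 20 cycles. Of 3A6-only regions 9.14% (9.01 to 9.27) and 7.70% (7.58 to 7.82) overlapped a BRG1 region. Of E1-only regions 3.01% (2.91 to 3.12) and 1.2% did, and of shared regions 8.32% (7.68 to 9.01) and 4.19% (3.99 to 4.41). E1-only regions at 20 cycles thus lay at BRG1 less often than the BRG1 share of the genome. With an overlap of at least 50% of the region the shared value at 20 cycles was 1.94%, below the BRG1 share of the spans, and the shared regions are the wider ones, with a median of 536 bp.

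The order was the same within bins of like gene density. In gene-rich bins 12.9% and 10.2% of 3A6-only regions overlapped BRG1 at 16 and 20 cycles, against 4.26% and 1.09% of E1-only regions. In gene-poor bins the shares were 4.53% and 4.97% against 1.60% and 0.94%. At promoter windows 54.4% and 34.8% of 3A6-only windows held a BRG1 region and 17.2% and 2.13% of E1-only windows, against 41.5% and 40.5% of all windows. These promoter shares were not matched for CpG. BRG1 was in 66.9% and 64.2% of CpG-rich windows and in 7.61% and 8.53% of windows with at most 4 CpG. The median CpG count was 12 and 6 in 3A6-only windows and 2 at both lengths in E1-only windows.

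In wildtype cells, against wildtype BRG1, the shares were 2.25% and 5.21% for 3A6-only regions and 1.55% and 1.04% for E1-only regions. The order of the antibodies was thus the same with Lap2alpha present, and the difference between genotypes was not tested. For CHD4, the ATPase of NuRD, the KO shares at 16 cycles were 7.19% of 3A6-only and 2.39% of E1-only regions. The KO CHD4 list at 20 cycles held only 7283 regions and gives no usable share.

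Against wildtype lists, shared regions overlapped 3A6 regions more often than regions of 1 antibody did, and at 16 cycles overlapped E1 regions at nearly the share of E1-only regions. Of shared regions 21.8% and 42.5% overlapped a wildtype 3A6 region at 16 and 20 cycles, against 7.39% and 20.1% of 3A6-only and 6.04% and 14.8% of E1-only regions. A wildtype E1 region was overlapped by 12.6% (11.9 to 13.5) and 41.5% of shared regions, 10.9% (10.8 to 11.1) and 30.0% of E1-only and 0.88% and 4.91% of 3A6-only regions. At sites of Lap2alpha itself, mapped in wildtype cells with antibody 1H11, lay 10.0% and 8.99% of shared regions, 5.00% and 6.58% of 3A6-only and 2.72% and 2.65% of E1-only regions. The Lap2alpha lists covered 0.66% and 0.97% of the spans. Shared regions are wider, with medians of 390 and 536 bp against 222 to 318 bp for regions of 1 antibody, and a wider region meets a target more easily.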

How the data were processed

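The deposited region lists, made by the authors, give 3 columns per interval: chromosome, start and end in base pairs. No peak height or score was used here and read depth is unknown, so all intervals counted alike. Per the submitters' processing notes the build was GRCm38 and the tools included MACS2 2.1.4, HOMER 4.11.1, bedtools, deepTools and SAMtools. What each did, with which threshold, control or pooling, is not given in the sources used here. List length depends on read number and threshold, so it does not measure bound protein.

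Starts were read as counted from 0. Intervals of width 0 (78 to 1201 per list) and 5 mitochondrial intervals were dropped, and overlapping or touching intervals were merged, in Python 3.11.15 with NumPy 2.4.6 and pandas 2.3.3. Interval functions were tested on simulated data. Genes were 21883 protein-coding RefSeq genes, without strand, so both gene ends were used. Promoter windows of 17491 genes came from a RefSeq table.

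Members and gene lists were chosen with earlier results of these data known. Named were up to 8 gene ends per class ranked by width, 8 gene bodies each way and in all 4 libraries, list members of 1 class at both lengths, 5 bins each way, and genes of lamins, their partners and the remodellers. Some list members were named outside this rule, such as Mcm6, Mcm4, Bub1, Lemd3 and Syne2, and some that met it were not named. Olfactory, vomeronasal and predicted genes were counted only. Alternatives covered unmerged or wider merging, other overlap rules, equal numbers of the widest regions, autosomes, other bins and windows, and, chosen after seeing the data, regions of at least 200 bp and annotated starts.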

Additional observations from a re-analysis of the deposited data

Results flagged for a closer look

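These results went opposite ways at 16 and 20 cycles. With 1 library on each side, the difference between sonication lengths was not tested. The log2 ratio of 3A6 to E1 in the number of regions was 0.80 at 16 cycles and -0.043 at 20 cycles. The log2 ratio in covered length was 0.62 and -0.43. Gene-end regions at olfactory receptors were 2.35 percentage points more frequent with 3A6 at 16 cycles, and the difference of 3A6 minus E1 was -10.0 points at 20 cycles. At keratin and keratin-associated genes, structural genes of hair and epidermis, it was 5.77 points at 16 cycles and -0.96 points at 20 cycles. Both reversals of a gene list have the sign of the change in covered length, and the part of list length in them was not tested.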

How the results depend on the processing

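Of 30 results under 144 alternatives, 4 were signed differences (the gene-rich and gene-poor shares), and none of these changed sign. Among 96 comparisons of 22 pairs of the other results under an alternative, 4 changed order: E1 regions overlapped 3A6 more often than the reverse at 20 cycles within 1 kb and with merging up to 1 kb, genes of both outnumbered those of E1 only at 16 cycles within 5 kb (2953 against 1104), and the reverse held at 20 cycles with annotated starts (766 against 930). In all, 61 values stayed within counting error of the reported value, or within 1.5 times for a count. The values that moved are given here at 16 and then 20 cycles, for 3A6 regions overlapping E1 and then E1 regions overlapping 3A6. Merging up to 1 kb apart gave 3.93% and 17.4%, then 6.95% and 18.1%. Overlap of at least 50% of the region gave 2.05% and 9.11%, then 3.01% and 5.93%. A match within 1 kb gave 13.8% and 44.8%, then 24.4% and 46.9%. Equal numbers of the widest regions gave 3.96% and 15.1%, then 3.97% and 15.1%. Regions of at least 200 bp gave 3.12% and 15.1%, then 4.65% and 13.6%. At 20 cycles intervals as listed gave 15.9% and 14.6%, and autosomes 15.1% for E1 regions.

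Within an antibody, for regions of 16 cycles found at 20 cycles, 3A6 and then E1 gave 19.9% and 46.8% with merging up to 1 kb, 16.2% and 41.4% with 50% overlap, 30.4% and 56.3% within 1 kb, 16.4% and 26.4% with equal numbers of the widest, and 16.8% and 41.6% with regions of at least 200 bp. E1 gave 48.4% as listed and 46.6% on autosomes.

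The gene-rich difference was 10.7 and 2.75 points in bins of 500 kb, 9.90 points at 16 cycles with regions of at least 200 bp, and at 20 cycles 1.55 as listed and 1.49 by covered length. The gene-poor difference was -16.1 and -5.04 in bins of 500 kb, and at 20 cycles -2.36 as listed, -2.20 by covered length and -2.89 with regions of at least 200 bp. The gene-rich share of shared, 3A6-only and E1-only regions in bins of 500 kb came to 14.5%, 23.6% and 12.4% at 16 cycles, then to 13.4%, 16.2% and 12.9%. On autosomes 3A6-only and E1-only regions gave 24.5% and 14.4%, then 17.8% and 15.4%. Equal numbers of the widest gave 24.4% for 3A6 only at 16 cycles. At 20 cycles covered length gave 16.8% for shared and 15.4% for E1-only regions, and as listed E1 only was 15.3%.

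BRG1 overlap with a 50% rule was 8.68% of 3A6-only and 2.47% of E1-only regions at 16 cycles, and 1.94% of shared, 7.10% of 3A6-only and 0.54% of E1-only regions at 20 cycles. With 200 bp centres it was 2.91% of E1-only regions at 16 cycles and 3.64% of shared and 0.97% of E1-only regions at 20 cycles. Equal numbers of the widest gave 9.31% and 3.13% for 3A6 only and E1 only at 16 cycles.

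Genes with a region within 5 kb of an end numbered 2953 (both) and 9201 (3A6 only) at 16 cycles, and 4195, 4883 and 690 (E1 only) at 20 cycles. With equal numbers of the widest, 365 genes were in both and 2579 in 3A6 only at 16 cycles. With annotated starts the counts were 183, 2279 and 548 at 16 cycles and 766 and 1313 for both and 3A6 only at 20 cycles. Bodies differing by at least 1 point numbered 2264 and 674. Libraries were compared within a sonication length, which the labels give. No paired analysis was possible because the labels give no replicate numbers and each antibody had 1 library per length, so no test could be made.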
